A study of Mus musculus with 15 samples.

Results

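The genes described here are 10 enzymes that write or erase methyl groups on lysines 36 and 27 of histone H3. They were taken from a list of gene names, and all 10 were found among the 21886 genes of an RPKM table and among the 14301 genes of a count table. Setd2, Nsd1, Ash1l and Smyd2 are methyltransferases of H3K36, Kdm2a, Kdm2b, Kdm4a and Kdm4c are demethylases that act on it, and Kdm6a and Kdm6b are demethylases of H3K27.

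Setd2 travels with elongating RNA polymerase II and adds the last methyl group to H3K36 in transcribed genes, while Nsd1 and Ash1l make the lower methylation states. H3K36 methylation on a histone tail hinders the Polycomb repressive complex PRC2, whose subunit Ezh2 methylates H3K27 on the same tail, so the enzymes of both lysines shape where Polycomb silencing can spread. In the prostate, Ezh2 is known for its high level in advanced cancer, and Setd2 and Kdm6a are known as genes that tumours can lose.

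The study profiled prostate epithelial cells of C57BL/6 mice grown as organoids, which are small epithelial structures cultured in a matrix. Double null cells were Setd2PC-/-;Ezh2PC-/-, Setd2 null cells Setd2PC-/-, Ezh2 null cells Ezh2PC-/-, and control cells carried neither deletion, all from mice 3 months old. Ezh2 K735R cells carried the Ezh2K735R allele and wild-type Ezh2 cells did not, both from mice 2 months old. The controls of both experiments are not wild-type mice, and the experiments differ in their background genotype, so levels were not compared between them. Every group had 2 RNA libraries. The sources used here name neither the Cre line behind the deletions nor the meaning of the letters PC. In the first 4 groups each library held RNA pooled from 3 biological replicates, and every p-value for them reflects how pools vary. For the last 2 groups no pool size is given and nothing says whether the libraries came from separate animals. In such bulk RNA, fewer cells of a type and less RNA per cell cannot be told apart.

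Recovered reads ranged from 46915669 to 54230805 per library in Ezh2 null and double null, and from 29686052 to 34880880 in Setd2 null and control. Genes above 0 numbered 16209 to 16382 and 15041 to 15300 in the same order. Depth thus went with the Ezh2 genotype, and its part in the Ezh2 comparisons was not tested. The count libraries held 28831228 to 37482322 reads. The first principal component of the 8 RPKM libraries held 81.2% of the variance and separated Ezh2 null and double null libraries from Setd2 null and control libraries. The second, with 6.93%, separated library 1 from library 2 within Ezh2 null and within double null. The RNA of the deleted genes was lower but not absent. For Ezh2 the log2 difference was −0.63 between Ezh2 null and control (limma adjusted p = 0.00414) and −0.52 between double null and Setd2 null (limma adjusted p = 0.0121). Dropping Setd2 null 1 (0.0657) or double null 2 (0.0912) ended the second of these calls. The epithelial label was met in all groups by Krt8, Krt18, Epcam and Cdh1 among the markers, while the luminal marker Pbsn was at 0 in both Setd2 null and both control libraries. Endothelial markers summed to at most 0.213 RPKM in any library.

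Promoter windows from RefSeq (build GRCm38.p6, the assembly also named mm10) cover 250 bases before and 50 bases after a gene's start and were found for 6 of the 10 genes. They are shown for Setd2, the deleted gene, and for the 3 genes that moved with Ezh2 deletion, because PRC2 and the CXXC domains of Kdm2a and Kdm2b are known to favour promoters rich in unmethylated CG. Capitals mark each CG dinucleotide, and every sequence runs 5′ to 3′ on the gene's own strand. Setd2's window is chr9:110532347-110532646 on the plus strand. It lies wholly inside the gene's listed span of chr9:110529296-110618633, so it belongs to an inner start. Smyd2's window is chr1:189922242-189922541 on the minus strand. Kdm2b starts at several places, of which an inner start (chr5:122900301-122900600) and the outermost start (chr5:122989050-122989349), both on the minus strand, are shown. Kdm4c has an outer start (chr4:74242247-74242546) and an inner start (chr4:74251629-74251928), both on the plus strand.
Setd2: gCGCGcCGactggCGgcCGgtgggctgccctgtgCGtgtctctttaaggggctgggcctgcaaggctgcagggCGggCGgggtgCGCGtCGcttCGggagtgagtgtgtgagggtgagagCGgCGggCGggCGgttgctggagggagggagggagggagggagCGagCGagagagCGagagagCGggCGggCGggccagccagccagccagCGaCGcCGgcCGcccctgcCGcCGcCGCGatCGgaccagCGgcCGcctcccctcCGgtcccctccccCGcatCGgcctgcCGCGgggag
Smyd2: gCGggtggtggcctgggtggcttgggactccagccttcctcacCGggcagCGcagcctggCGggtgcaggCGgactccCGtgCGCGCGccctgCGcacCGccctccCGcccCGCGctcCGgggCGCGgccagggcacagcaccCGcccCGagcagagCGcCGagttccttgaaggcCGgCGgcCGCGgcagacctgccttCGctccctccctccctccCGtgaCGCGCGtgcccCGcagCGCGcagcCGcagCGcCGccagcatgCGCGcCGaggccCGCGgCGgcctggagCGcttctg
Kdm2b inner start: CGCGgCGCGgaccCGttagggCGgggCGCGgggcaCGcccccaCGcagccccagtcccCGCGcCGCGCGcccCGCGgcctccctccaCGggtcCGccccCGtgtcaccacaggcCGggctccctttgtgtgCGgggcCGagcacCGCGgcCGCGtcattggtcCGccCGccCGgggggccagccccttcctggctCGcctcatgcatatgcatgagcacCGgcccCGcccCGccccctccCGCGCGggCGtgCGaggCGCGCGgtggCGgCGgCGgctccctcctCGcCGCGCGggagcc
Kdm2b outermost start: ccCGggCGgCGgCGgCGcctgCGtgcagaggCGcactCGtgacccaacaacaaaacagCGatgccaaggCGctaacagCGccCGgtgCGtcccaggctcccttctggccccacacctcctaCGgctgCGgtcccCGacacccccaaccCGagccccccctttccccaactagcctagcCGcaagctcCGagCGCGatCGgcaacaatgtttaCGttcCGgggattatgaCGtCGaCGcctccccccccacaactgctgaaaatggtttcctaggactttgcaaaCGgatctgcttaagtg
Kdm4c outer start: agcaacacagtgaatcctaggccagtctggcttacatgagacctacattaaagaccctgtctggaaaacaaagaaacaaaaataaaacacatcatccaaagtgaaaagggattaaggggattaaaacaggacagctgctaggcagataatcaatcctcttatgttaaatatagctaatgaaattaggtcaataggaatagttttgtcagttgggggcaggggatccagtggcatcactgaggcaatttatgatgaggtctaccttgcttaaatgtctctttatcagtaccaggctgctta
Kdm4c inner start: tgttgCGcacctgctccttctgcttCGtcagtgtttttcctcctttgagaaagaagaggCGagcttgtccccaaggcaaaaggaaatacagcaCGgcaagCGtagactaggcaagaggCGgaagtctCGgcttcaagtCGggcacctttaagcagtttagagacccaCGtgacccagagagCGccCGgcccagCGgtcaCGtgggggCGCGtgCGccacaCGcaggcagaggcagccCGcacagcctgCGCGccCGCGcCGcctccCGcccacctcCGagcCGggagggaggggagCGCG

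The Setd2 window held 38 CG dinucleotides and the Smyd2 window 43, against a median of 7 over all 32851 windows of the RefSeq table. Of all windows, 4.95% held as many as the Setd2 window and 2.61% as many as the Smyd2 window. The Kdm2b inner start held 49 CG, a count reached by 1.02% of windows, and its outermost start held 28. The Kdm4c outer start held 0 CG and was 40% G or C, whereas its inner start held 28 CG and 2 copies of CACGTG. That motif, searched on both strands, stood in 7.15% of all windows. The motif GGGCGG, also searched on both strands, occurred 7 times in the Setd2 window, 3 times in the Smyd2 window and 6 times at the Kdm2b inner start. It occurred 1 time each at the Kdm2b outermost and Kdm4c inner starts, and 0 times at the Kdm4c outer start. At least 1 copy stood in 35.7% of all windows. The windows of Kdm4a and Kdm6a, not shown, held 13 and 21 CG, with 0 and 1 copies of GGGCGG. These matches describe the letters of the windows and do not mark bound sites, and which starts were in use was not measured.

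RPKM, the deposited unit, is read density scaled to gene length and library size, and can be compared between genes. In control cells the level ran between 26.4 RPKM for Kdm2a and 3.08 RPKM for Kdm2b, with Setd2 at 16.5 RPKM behind Kdm2a and Kdm4a. In double null cells Kdm2a was again highest at 25.5 RPKM and Kdm2b lowest at 6.21 RPKM, and Smyd2 stood second at 23.5 RPKM. Smyd2 was eighth in control cells at 10.8 RPKM. The order of the other genes moved little by comparison, apart from Setd2 itself, which was seventh in double null cells.

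**Figure D1:**
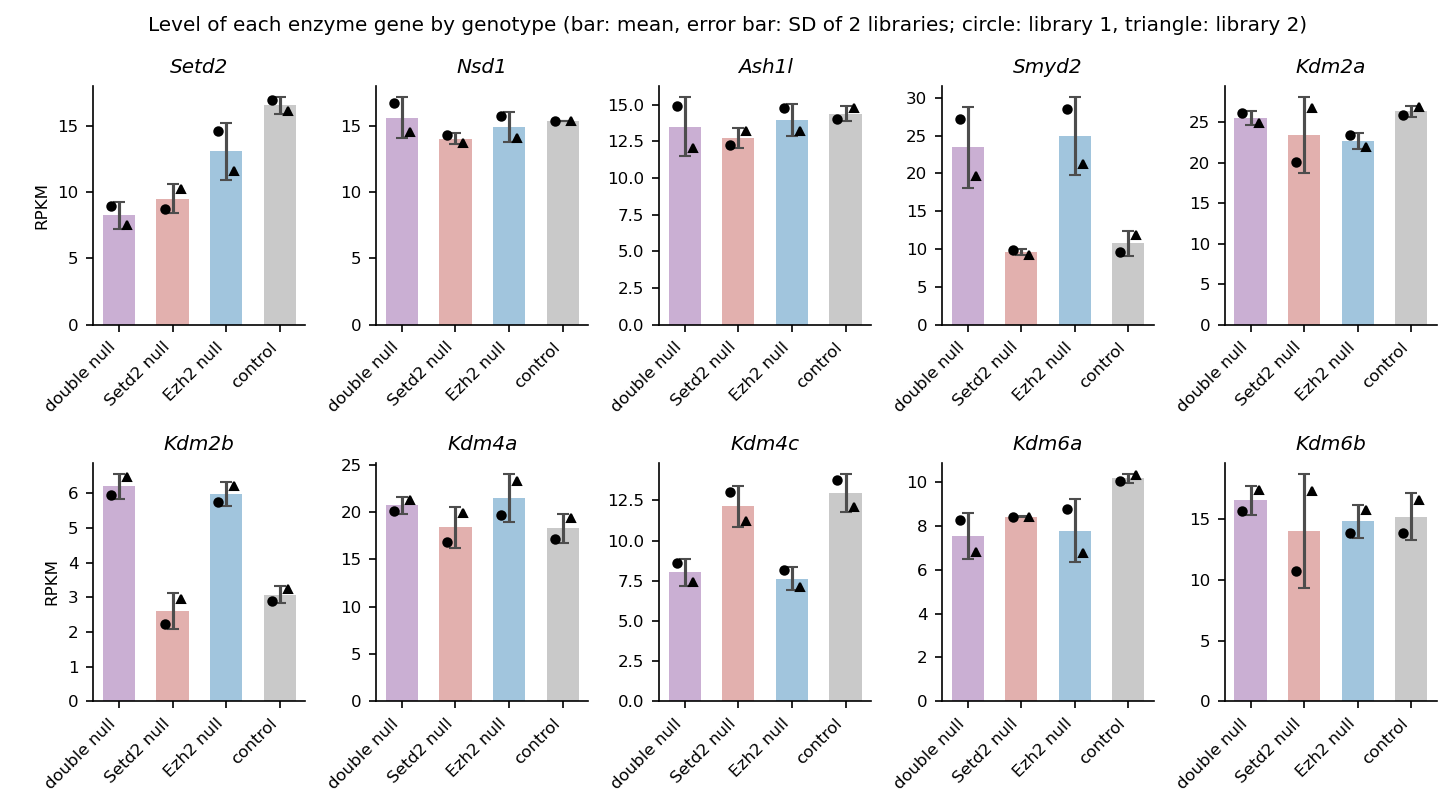
Level of each of the 10 enzyme genes in RPKM on a linear axis from 0, in double null, Setd2 null, Ezh2 null and control cells. Bars are means of 2 libraries, error bars SD, circles library 1 and triangles library 2. Smyd2 and Kdm2b stand higher and Kdm4c lower in both groups without Ezh2, and Setd2 is lowest in the groups without Setd2.

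The comparison of cells with and without Setd2 asks what the deletion did to Setd2's own RNA and to the other enzymes of the pathway. Setd2 fell, and none of the other 9 genes passed the test. The Setd2 gene (Entrez 235626, chr9:110529296-110618633, plus strand, mm10) had 8.99 and 7.54 RPKM in double null cells, 8.75 and 10.3 RPKM in Setd2 null cells, 14.6 and 11.6 RPKM in Ezh2 null cells, and 17.0 and 16.1 RPKM in control cells. All 4 libraries with Setd2 deleted lay below all 4 with Setd2 intact, and between neighbours in the order only double null and Setd2 null overlapped. The mean was 9.51 ± 1.07 RPKM in Setd2 null and 16.5 ± 0.614 RPKM in control (SD, n = 2 each), which left 57.5% of the control level. In double null it was 8.26 ± 1.03 RPKM, against 13.1 ± 2.13 RPKM in Ezh2 null, or 63.1% of the Ezh2 null level. These values rest on 2631 to 7389 recovered reads per library. The labels do not say which exons were removed, and the values count reads over the whole gene.

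Averaged over both Ezh2 genotypes, Setd2 deletion changed Setd2 by −0.67 ± 0.105 on the log2(RPKM + 1) scale (SE, limma adjusted p = 0.00529). That call held in all 15 alternatives, with an adjusted p of 0.00352 to 0.0341. Setd2 was the 1 of 10 genes called, where 6% of all 11338 genes tested were called (3.17% higher and 2.83% lower). In the separate comparisons the result sat at the threshold. Setd2 null against control gave −0.74 (95% interval −1.08 to −0.41) with a limma adjusted p of 0.0563 (0.0346 to 0.368 over 16 alternatives, with calls on leaving out either Ezh2 null or either double null library). So 0 of the 10 genes were called, against 1.07% of all genes (0.379% higher and 0.688% lower). At an unadjusted p under 0.05 there was 1 of the 10 genes, Setd2, and 11.6% of all genes, and edgeR on recovered reads also called 0. Double null against Ezh2 null gave −0.60 with a limma adjusted p of 0.0425, the 1 call among the 10 genes, against 6.49% of all genes (3.79% higher and 2.7% lower). This call was lost on leaving out either Setd2 null library, Ezh2 null 1, either double null library or either control library (limma adjusted p 0.0509 to 0.282). The libraries of 4 of the 10 genes did not overlap between Setd2 null and control, against 42.2% of all genes, and those of 2 of the 10 between double null and Ezh2 null, against 42.3%.

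Nsd1 and Ash1l, which also write H3K36 methylation, stayed within a narrow band. Nsd1 (Entrez 18193, chr13:55209782-55318325, plus strand) had 16.7 and 14.5 RPKM in double null, 14.3 and 13.7 RPKM in Setd2 null, 15.7 and 14.1 RPKM in Ezh2 null, and 15.4 in both control libraries. Ash1l (Entrez 192195, chr3:88950492-89079375, plus strand) had 14.9 and 12.1 RPKM in double null, 12.2 and 13.2 RPKM in Setd2 null, 14.7 and 13.2 RPKM in Ezh2 null, and 14.0 and 14.7 RPKM in control. Both genes lay a little lower in Setd2 null than in control with no overlap, and overlapped between double null and Ezh2 null. For the averaged Setd2 effect the 95% interval was −0.23 to 0.16 for Nsd1 and −0.32 to 0.10 for Ash1l, and neither gene was called in any comparison or alternative run.

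Of Setd2's neighbours on chromosome 9, Nradd changed with Setd2 deletion and Kif9, Klhl18 and Nbeal2 did not pass the test. Nradd lies 2502 bases beyond Setd2 on the higher-coordinate side. It had 20.8 and 22.0 RPKM in double null, 31.1 and 25.2 RPKM in Setd2 null, 13.0 and 13.5 RPKM in Ezh2 null, and 20.7 and 21.3 RPKM in control. Each Setd2-deleted library lay above both libraries of its partner group. The averaged Setd2 effect on Nradd was 0.53 (limma adjusted p = 0.00952), with 0.65 in double null against Ezh2 null (limma adjusted p = 0.0161) and 0.40 in Setd2 null against control (limma adjusted p = 0.246). Nradd also fell with Ezh2 deletion, at an average change of −0.50 (limma adjusted p = 0.000874). The values for Kif9, 7326 bases away on the other side, were at most 1.39 RPKM.

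**Figure D2:**
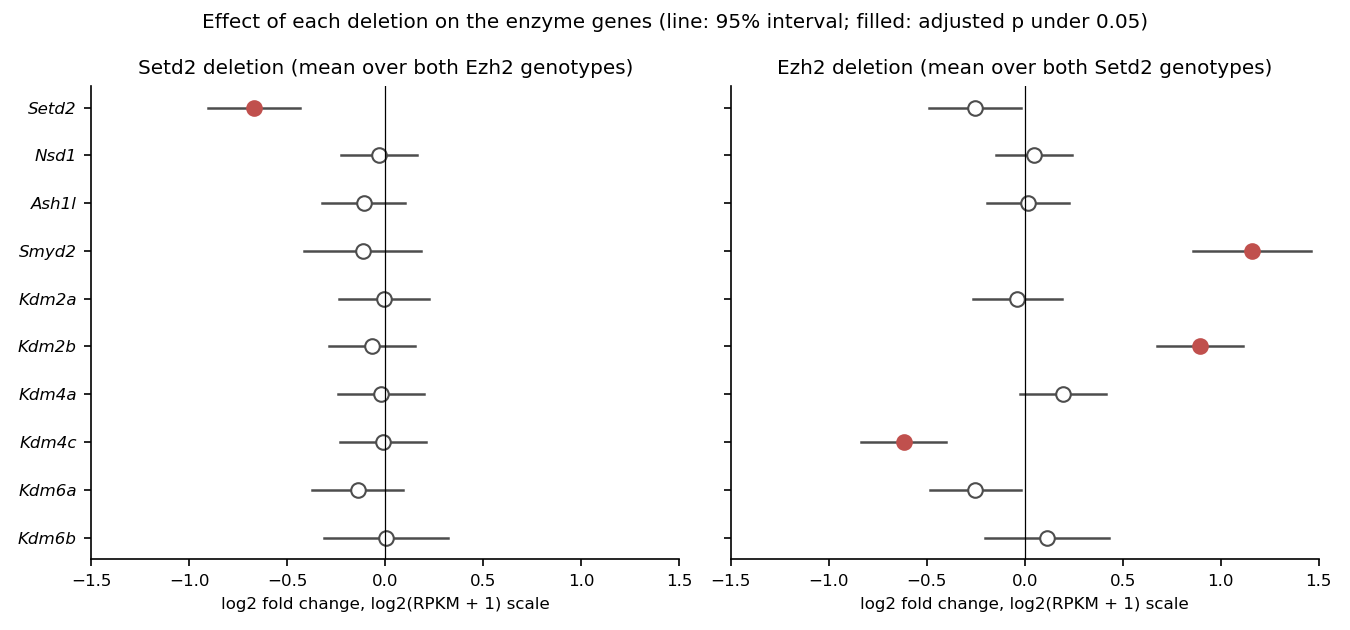
Log2 fold change of each enzyme gene with Setd2 deletion (left, mean over both Ezh2 genotypes) and Ezh2 deletion (right, mean over both Setd2 genotypes), on the log2(RPKM + 1) scale. Lines are 95% intervals from limma and filled points passed an adjusted p of 0.05. Setd2 stands alone on the left, and Smyd2, Kdm2b and Kdm4c are the filled points on the right.

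The comparison of cells with and without Ezh2 asks which of these enzymes move when the H3K27 methyltransferase is lost. Smyd2 and Kdm2b were at least 1.94 times as high and Kdm4c was lower, both with Setd2 intact and with Setd2 deleted, while Nsd1, Ash1l, Kdm2a, Kdm4a and Kdm6b did not pass the test. Most genes were called between cells with and without Ezh2, so these counts have a high background. In Ezh2 null against control 3 of the 10 genes were called, against 56.6% of all genes (36.1% higher and 20.5% lower). Double null against Setd2 null also gave 3 of 10, against 55% of all genes (35.6% higher and 19.4% lower), and the averaged effect gave 3 of 10, against 68.5% (43.5% higher and 25% lower). As deposited, the share among the 10 genes was thus below that of all genes each time. Other scalings called more of the 10 genes in Ezh2 null against control and for the averaged effect, so this shortfall depended on the scaling. Libraries did not overlap for 7 of the 10 genes between Ezh2 null and control, against 81.4% of all genes, and for 6 of 10 between double null and Setd2 null, against 76.2%. The median log2 fold change in Ezh2 null against control was −0.04 for the 10 genes and 0.18 for all genes. Quantile normalization moved the median of all genes to 0.01 and median-ratio scaling moved it to 0.02, and the split of calls went with it, with 4096 higher and 2320 lower as deposited and 3098 higher and 3093 lower after median-ratio scaling. In double null against Setd2 null the split was 4036 higher and 2205 lower as deposited and 2921 higher and 3122 lower after quantile normalization. For the averaged effect it was 4930 higher and 2833 lower as deposited and 3769 higher and 3853 lower after quantile normalization.

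Smyd2 (Entrez 226830, chr1:189880492-189922376, minus strand), which methylates H3K36 and also proteins other than histones, showed the largest change of the 10 genes. It had 27.3 and 19.6 RPKM in double null, against 9.89 and 9.28 RPKM in Setd2 null. In Ezh2 null it had 28.6 and 21.3 RPKM, against 9.62 and 11.9 RPKM in control. Every library without Ezh2 lay above every library with it, and library 1 was the higher in both groups without Ezh2. The mean was 24.9 ± 5.15 RPKM in Ezh2 null and 10.8 ± 1.62 RPKM in control (SD, n = 2 each), a ratio of 2.31, and the ratio of double null to Setd2 null was 2.45. Smyd2 rose by 1.13 ± 0.189 (SE, limma adjusted p = 0.000765) with Setd2 intact and by 1.19 with Setd2 deleted (limma adjusted p = 0.000595). It stayed called in all 16 alternatives of each comparison, with a log2 fold change of at least 0.93, and the difference between its 2 effects was 0.06 (95% interval −0.54 to 0.66).

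Among the H3K36 erasers, Kdm2b (Entrez 30841, chr5:122870664-122989162, minus strand) rose. It removes methyl groups from H3K36 and binds CG-rich promoters as part of a Polycomb repressive complex of the PRC1 class. Kdm2b had 5.95 and 6.46 RPKM in double null, against 2.23 and 2.96 RPKM in Setd2 null. In Ezh2 null it had 5.74 and 6.22 RPKM, against 2.90 and 3.25 RPKM in control. The 2 groups of libraries were again separate, and the spread within a group was small. With Setd2 intact the ratio of means was 1.94 and the log2 fold change 0.78 ± 0.138 (SE, limma adjusted p = 0.00112), and with Setd2 deleted the ratio was 2.39 and the log2 fold change 1.01 (limma adjusted p = 0.000236). Both calls held in the 15 alternatives that kept the gene, whose mean level was under 5 RPKM. Its close relative Kdm2a (Entrez 225876, chr19:4316144-4398596, minus strand) had 26.2 and 24.9 RPKM in double null, 20.1 and 26.7 RPKM in Setd2 null, 23.4 and 21.9 RPKM in Ezh2 null, and 25.9 and 26.8 RPKM in control. Setd2 null 1 lay below the other Kdm2a values. Kdm2a was not called in any comparison as deposited, but 2 of 16 alternatives called it lower in Ezh2 null against control, at −0.387 by limma after median-ratio scaling (adjusted p = 0.0488) and −0.394 by edgeR on recovered reads (adjusted p = 0.0451). Its averaged Ezh2 effect had a 95% interval of −0.27 to 0.19.

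Kdm4c (Entrez 76804, chr4:74242497-74405864, plus strand), a demethylase of trimethylated H3K9 and H3K36, fell. It had 8.60 and 7.44 RPKM in double null, against 13.0 and 11.2 RPKM in Setd2 null. In Ezh2 null it had 8.14 and 7.12 RPKM, against 13.8 and 12.1 RPKM in control. Library 1 was the higher in all 4 groups, and no library without Ezh2 reached a library with it. The Ezh2 null mean was 58.9% of the control mean, a log2 difference of −0.69 ± 0.137 (SE, limma adjusted p = 0.00203). The double null mean was 66.1% of Setd2 null (−0.54, limma adjusted p = 0.00808), a call that was lost without double null 2 (limma adjusted p = 0.0648). Kdm4a (Entrez 230674, chr4:118136957-118180043, minus strand), which acts on the same marks, was not called. It had 20.1 and 21.3 RPKM in double null, 16.8 and 19.9 RPKM in Setd2 null, 19.7 and 23.3 RPKM in Ezh2 null, and 17.2 and 19.4 RPKM in control. Its libraries without Ezh2 lay above those of the partner group in both comparisons. The difference of 0.22 in Ezh2 null against control (limma adjusted p = 0.200) ran from 0.04 after median-ratio scaling to 0.34 over the alternatives (adjusted p 0.0489 to 0.810). The averaged Ezh2 effect on Kdm4a was 0.19 (limma adjusted p = 0.105), and 0.25 with a limma adjusted p of 0.0497 without Setd2 null 2.

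**Figure D3:**
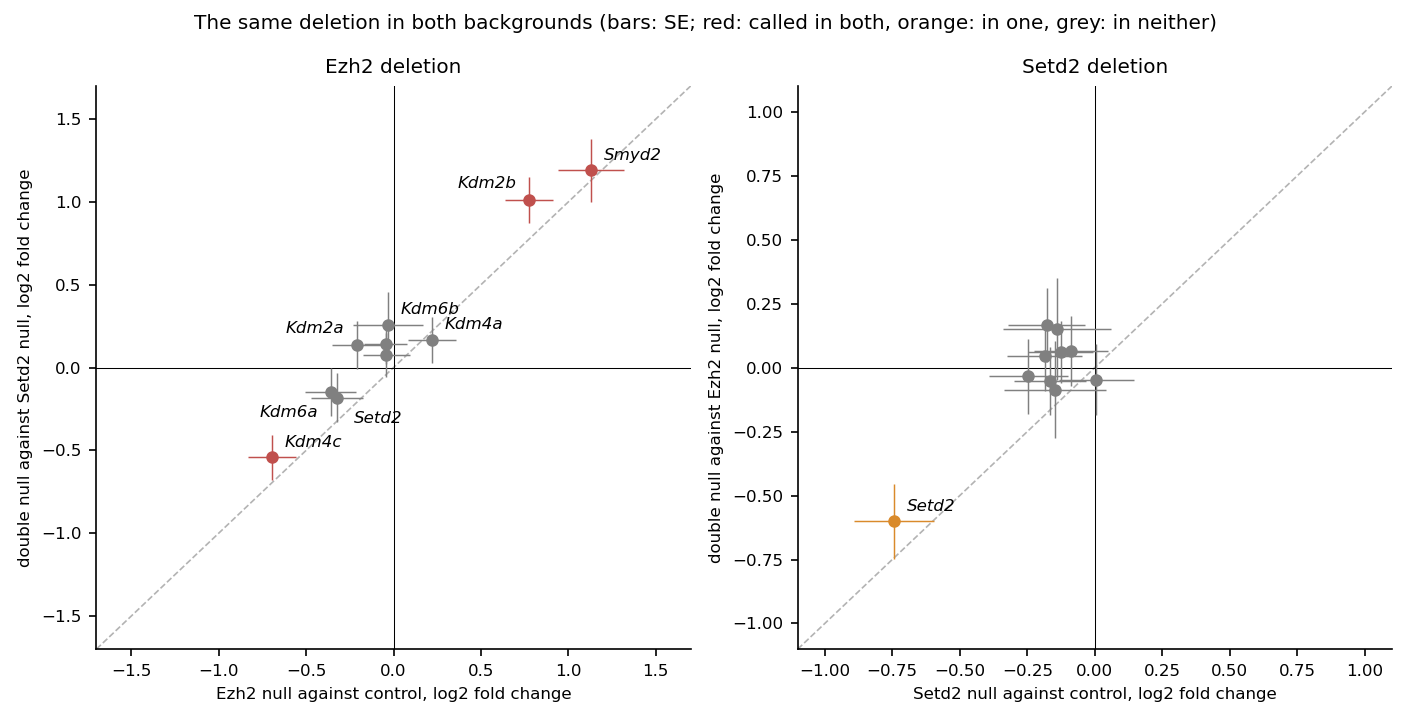
Log2 fold change of each enzyme gene for the same deletion with the other gene intact (horizontal axis) and deleted (vertical axis), on the log2(RPKM + 1) scale, for Ezh2 deletion (left) and Setd2 deletion (right). Bars are SE from limma and the dashed line marks equal effects. Smyd2, Kdm2b and Kdm4c lie near the line with both calls, and Setd2 is called on the vertical axis of the right panel.

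The axes of each panel rest on different libraries. No gene's effect was shown to depend on the second deletion. The interaction called 0 of the 10 genes by limma, against 2.59% of all genes (1.69% higher and 0.9% lower). At an unadjusted p under 0.05 there were 0 of the 10 genes and 10.3% of all genes, and edgeR on recovered reads called 0 of the 10. The intervals were wide, for example −0.21 to 0.67 for Kdm2b and −0.33 to 0.61 for Setd2.

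The H3K27 erasers did not pass the test. Kdm6a (Entrez 22289, chrX:18162364-18279936, plus strand), also called UTX, is an X-linked demethylase that works within MLL3 and MLL4 complexes. It had 8.28 and 6.79 RPKM in double null, 8.41 and 8.43 RPKM in Setd2 null, 8.79 and 6.75 RPKM in Ezh2 null, and 10.03 and 10.32 RPKM in control. Control cells held the highest values and the other 3 groups did not reach them. Kdm6a differed by −0.36 on the log2 scale between Ezh2 null and control (95% interval −0.69 to −0.03, limma adjusted p = 0.0604). It was −0.53 with an adjusted p of 0.00901 after quantile normalization, −0.52 with 0.0113 after median-ratio scaling and −0.56 with 0.0122 by edgeR on recovered reads. Leaving out Ezh2 null 1 gave 0.0231 and leaving out Ezh2 null 2 gave 0.380, the highest over the alternatives. Setd2 in the same comparison was at −0.32 (limma adjusted p = 0.0872), and at −0.48 with 0.0168 after quantile normalization and 0.0386 without Ezh2 null 1.

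Kdm6b (Entrez 216850, chr11:69398508-69418147, minus strand), the signal-induced relative of Kdm6a also called JMJD3, had 15.7 and 17.4 RPKM in double null, 10.7 and 17.4 RPKM in Setd2 null, 13.9 and 15.8 RPKM in Ezh2 null, and 13.9 and 16.6 RPKM in control. The 2 Setd2 null libraries lay further apart than any others, and all 4 groups overlapped. In double null against Setd2 null its log2 fold change was 0.26 (limma adjusted p = 0.297), −0.07 without Setd2 null 1 and 0.58 without Setd2 null 2 (limma adjusted p = 0.0194), so its direction rested on these libraries. Genes of the immediate early response, which mark recent stress or handling, summed to 391 to 516 RPKM in double null, 490 to 609 in Setd2 null, 329 to 424 in Ezh2 null and 586 to 620 in control. The list split for the averaged Ezh2 effect, with Jun (−1.12) and Junb (−0.77) called lower and Egr1 (0.35) and Fos (0.23) higher. Egr1 and Fos lost their calls under the other scalings. The part of these genes in the Kdm6b values was not tested.

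Markers of cell state moved with the Ezh2 genotype as well. The 4 basal epithelial markers summed to 4843 to 5623 RPKM in double null and 1747 to 2244 RPKM in Setd2 null, and to 3506 to 4352 RPKM in Ezh2 null and 1803 to 1867 RPKM in control. Most of these sums was Krt5 and Krt15, and Krt14 overlapped between Ezh2 null and control. Trp63 was lower in Ezh2 null than in control, at means of 17.9 and 21.3 RPKM. It was higher in double null than in Setd2 null, at 27.3 and 18.8 RPKM. The 7 stromal markers summed to 29.0 to 33.6 RPKM in double null and 2.02 to 3.22 RPKM in Setd2 null, and to 32.3 to 33.9 RPKM in Ezh2 null and 2.75 to 4.15 RPKM in control. The epithelial genes Epcam and Cdh1 together gave 651 to 682 RPKM in double null and 1563 to 1703 RPKM in Setd2 null, and 621 to 634 RPKM in Ezh2 null and 1503 to 1527 RPKM in control. Decorin (Dcn) was the largest single part of the stromal sum without Ezh2, at a mean of 22.9 RPKM in double null and 15.7 RPKM in Ezh2 null. The collagens Col3a1, Col1a2 and Col1a1 averaged 2.98, 2.92 and 1.99 RPKM in double null and 6.64, 5.70 and 4.31 RPKM in Ezh2 null. With Ezh2 intact none of these collagens averaged more than 0.586 RPKM. Acta2 of the same list lay the other way, at 0.0704 RPKM in double null and 0.678 RPKM in Setd2 null, and 0.156 RPKM in Ezh2 null and 1.34 RPKM in control. Lum, a stromal marker, was at 0 in both Setd2 null and both control libraries. The 7 luminal markers summed to 1472 to 1549 RPKM in double null and 1910 to 2431 RPKM in Setd2 null, and to 1579 to 1749 RPKM in Ezh2 null and 1861 to 1968 RPKM in control. The 6 immune markers summed to 13.7 to 14.9 RPKM in double null and 33.2 to 39.5 RPKM in Setd2 null, and to 13.0 to 13.8 RPKM in Ezh2 null and 21.8 to 24.6 RPKM in control, with Ptprc, Adgre1, Cd3e and Lyz2 at 0 in both Setd2 null and both control libraries. Cd68 made up nearly all of the sum with Ezh2 intact, and its mean was 11.1 RPKM in double null and 36.3 RPKM in Setd2 null, and 4.33 RPKM in Ezh2 null and 23.2 RPKM in control. Lyz2 averaged 2.84 RPKM in double null and 7.94 RPKM in Ezh2 null, and Adgre1 0.295 RPKM in double null and 1.04 RPKM in Ezh2 null. The part of these markers in the levels of Smyd2, Kdm2b and Kdm4c was not tested.

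The other genes of the pathway were read for the averaged Ezh2 effect, beside a median of 0.18 and calls of 43.5% higher and 25% lower over all genes. Of 5 other H3K36 methyltransferases tested, 0 rose and 3 fell (median −0.38). They were Smyd3 (−0.51), Whsc1l1 (−0.47), also called Nsd3, and Setd3 (−0.38), which is now known as an actin histidine methyltransferase. Of 2 other H3K36 demethylases tested, neither was called by limma, and edgeR called 1 of 4 higher. Kdm8 of that list did not pass the RPKM filter. Its mean was 1.16 RPKM in double null and 0.488 RPKM in Setd2 null, and 1.36 RPKM in Ezh2 null and 0.432 RPKM in control. All 3 of Ezh1, Ezh2 and Uty fell. Ezh1, the relative of Ezh2 that can also form PRC2, had 13.0 and 12.3 RPKM in double null, 21.6 and 21.2 RPKM in Setd2 null, 13.0 and 11.2 RPKM in Ezh2 null, and 19.5 and 21.1 RPKM in control, an average change of −0.71 (limma adjusted p = 5.8e-05). These falls of Smyd3, Whsc1l1, Setd3, Ezh1, Ezh2 and Uty kept their sign and call under all 3 other scalings.

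Readers of methylated H3K36 and partners of Setd2 split, with 9 of 17 higher and 3 lower (median 0.24). Under median-ratio scaling the list had 5 higher and 5 lower (median 0.06), so its balance depended on the scaling. The accessory PRC2 subunits Phf19 and Mtf2, which both hold a domain for methylated H3K36, moved in opposite directions. Phf19 had 2.97 and 2.22 RPKM in double null, 0.653 and 0.684 RPKM in Setd2 null, 2.47 and 2.56 RPKM in Ezh2 null, and 0.874 and 0.665 RPKM in control, and rose by an average of 1.05 (limma adjusted p = 8.98e-06). With Ezh2 intact all its values lay under 1 RPKM, so Phf19 passed the filter of a mean of 1 RPKM only through the groups without Ezh2. Mtf2 had 4.11 and 3.16 RPKM in double null, 7.86 and 6.73 RPKM in Setd2 null, 3.75 and 3.13 RPKM in Ezh2 null, and 7.01 and 6.21 RPKM in control, an average change of −0.81 (limma adjusted p = 0.000101). For neither gene did libraries without Ezh2 overlap libraries with it, and under the other scalings Phf19 stayed between 0.75 and 1.65 and Mtf2 between −1.15 and −0.81. Hdgfrp2 (0.72) and Brpf1 (0.56), readers with a PWWP domain, were also called higher.

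Partners in the complexes that hold Kdm6a and Kdm2b were also read. Of 9 subunits of the MLL3 and MLL4 complexes, 5 rose and 0 fell (median 0.32, and 0.12 to 0.19 under the other scalings, with 4 higher and 0 lower in each), led by Paxip1 (1.0), Pagr1a (0.83), Wdr5 (0.48) and Ash2l (0.43). Paxip1 had 6.57 and 7.43 RPKM in double null, 2.93 and 3.48 RPKM in Setd2 null, 8.01 and 8.03 RPKM in Ezh2 null, and 3.22 and 3.34 RPKM in control, with no overlap between cells without and with Ezh2. Of 8 subunits of the Kdm2b complex, 2 rose and 2 fell (median 0.11, but −0.07 after median-ratio scaling and −0.06 by edgeR, with 1 higher and 2 lower in each). Bcorl1 (−0.65) and Rnf2 (−0.59) were lower and kept their calls under the other scalings, whereas Bcor (0.44) and Ring1 (0.45) were higher. Ring1 was called only as deposited, and quantile normalization called neither. The lists of readers, complexes and other enzymes held 0 calls for the averaged Setd2 effect.

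**Figure D4:**
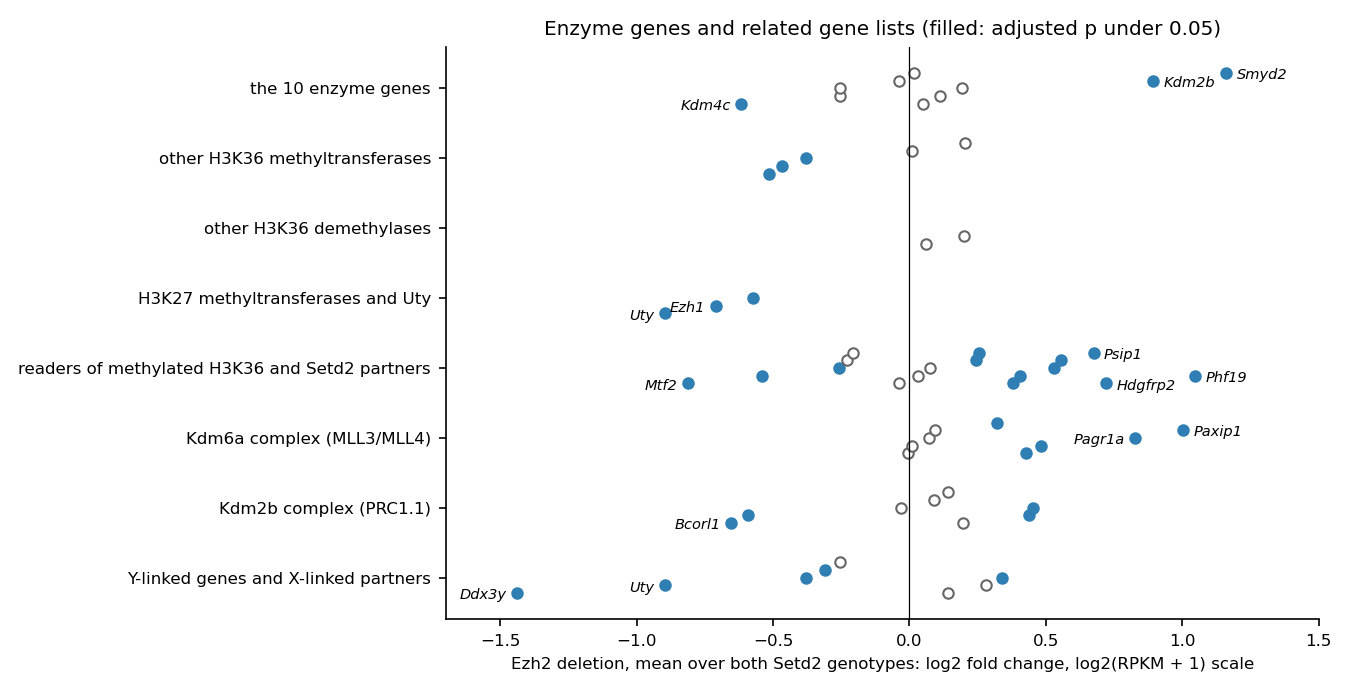
Log2 fold change with Ezh2 deletion (mean over both Setd2 genotypes, log2(RPKM + 1) scale) of the 10 enzyme genes and of 7 lists of related genes, one list per row. Each point is a gene, filled where limma's adjusted p passed 0.05, and genes that changed by more than 0.6 are named. Smyd2, Phf19 and Paxip1 lie furthest to the right and Ddx3y furthest to the left.

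Uty, the Y-linked relative of Kdm6a with weak demethylase activity, had 4.37 and 3.01 RPKM in double null, 7.52 and 6.34 RPKM in Setd2 null, 3.18 and 2.35 RPKM in Ezh2 null, and 6.93 and 6.29 RPKM in control. It fell in Ezh2 null against control (−1.02, limma adjusted p = 0.000889) and in double null against Setd2 null (−0.77, limma adjusted p = 0.00475). Reads of Uty and Kdm6a can be shared because the genes are close relatives, and the sources used here do not say how shared reads were divided. The other Y-linked genes moved with Uty in Ezh2 null against control, where Ddx3y (−1.60), Kdm5d (−0.51) and Eif2s3y (−0.48) were called lower. Ddx3y had 14.4 and 10.1 RPKM in double null, 33.2 and 28.1 RPKM in Setd2 null, 9.90 and 7.30 RPKM in Ezh2 null, and 29.2 and 26.7 RPKM in control. Of their X-linked partners Kdm6a, Ddx3x, Eif2s3x and Kdm5c, 0 were called in that comparison by limma. In double null against Setd2 null, Ddx3y (−1.27) and Uty were called lower and Eif2s3x (0.40) higher. The relation of these Y-linked levels to the Kdm6a values was not tested.

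Over the 8 libraries the levels of Smyd2 and Kdm2b varied together (Pearson r = 0.92 on log2(RPKM + 1)) and opposite to Kdm4c (r = −0.87 with Smyd2 and −0.96 with Kdm2b). These correlations describe 8 libraries that share genotypes and culture, and they include the Ezh2 contrast itself. Among genes averaging 5 RPKM or more, 1313 reached r of 0.9 with Smyd2, 1799 with Kdm2b and 997 with Kdm4c. For Setd2 there were 17 such genes of 8242, and the closest were Tsc22d1 (r = 0.98), Setd7 (0.98), Trim44 (0.96), Ccpg1os (0.96) and Ptprk (0.95). Setd7, a lysine methyltransferase first known for H3K4, had 13.8 and 12.3 RPKM in double null, 13.0 and 14.9 RPKM in Setd2 null, 16.1 and 15.3 RPKM in Ezh2 null, and 17.6 and 17.9 RPKM in control. Its 4 libraries with Setd2 deleted lay below its 4 libraries with Setd2 intact. The nearest genes by the same measure were Zhx1, Kif1bp and Gadd45gip1 for Smyd2, Nol9, Sel1l3 and Atad3a for Kdm2b, and Chd2, Tnks2 and Cnot7 for Kdm4c, all with r of at least 0.99. The closest gene was Stx17 for Nsd1 (0.96), Celf1 for Ash1l (0.92), Wdfy1 for Kdm2a (0.99), Zfp335 for Kdm4a (0.98), Ppp3cb for Kdm6a (0.98) and Klf13 for Kdm6b (0.96).

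The comparison of Ezh2 K735R with wild-type Ezh2 asks whether a lysine-to-arginine change in Ezh2 alters these genes. Here counts were scaled to CPM, a share of the library after TMM scaling, which cannot be compared between genes. None of the 10 genes passed edgeR's quasi-likelihood test, in which 0.00757% of all 13203 genes were called. At an unadjusted p under 0.05 there was 1 of the 10 genes and 9.24% of all genes, and DESeq2 and limma also called 0 of the 10. Setd2 had 136 and 133 CPM in Ezh2 K735R, against 139 and 131 CPM in wild-type Ezh2, and the 95% interval of its log2 fold change by limma was −0.22 to 0.21. Smyd2 had 30.1 and 29.5 CPM in Ezh2 K735R, against 31.1 and 30.5 CPM in wild-type Ezh2, with an interval of −0.32 to 0.23. The K735R libraries of Smyd2 lay just below the wild-type ones, and those of Setd2 lay between them.

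**Figure D5:**
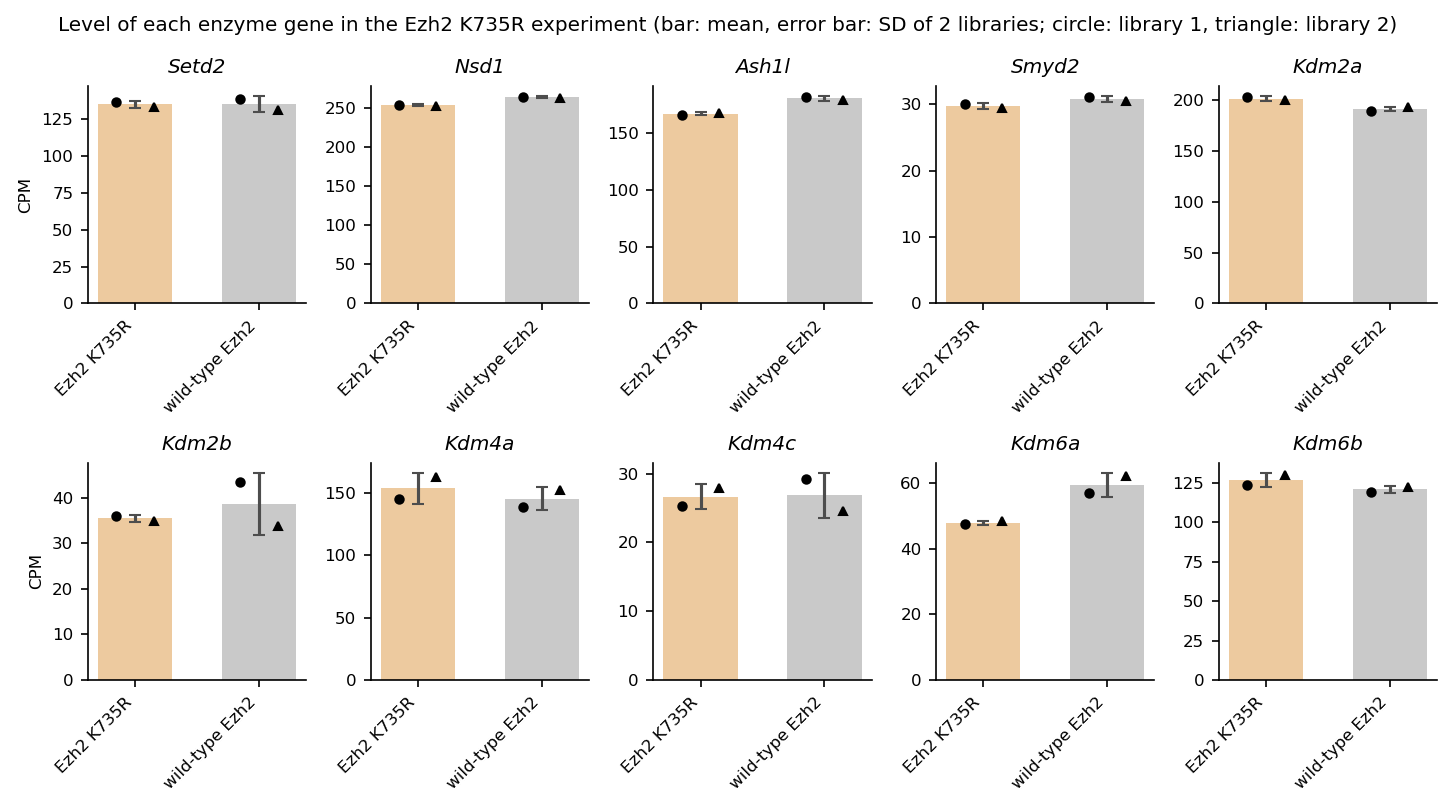
Level of each of the 10 enzyme genes in CPM on a linear axis from 0, in Ezh2 K735R and wild-type Ezh2 cells. Bars are means of 2 libraries, error bars SD, circles library 1 and triangles library 2. Kdm6a shows the widest relative gap between the groups, and the wild-type libraries of Kdm2b and Kdm4c lie far apart.

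Kdm2b had 35.9 and 35.0 CPM in Ezh2 K735R, against 43.4 and 33.8 CPM in wild-type Ezh2, and the K735R values lay between the wild-type ones (95% interval −0.51 to 0.28). Kdm4c had 25.4 and 27.9 CPM in Ezh2 K735R, against 29.2 and 24.6 CPM in wild-type Ezh2, also without separation (95% interval −0.38 to 0.36). Kdm6a was the gene with an unadjusted p under 0.05. It had 47.5 and 48.4 CPM in Ezh2 K735R, against 56.9 and 62.0 CPM in wild-type Ezh2, a log2 fold change of −0.31 (edgeR adjusted p = 0.455). The Kdm6a groups did not overlap, and its adjusted p over the alternatives ran from 0.0878 to 1.0. Nsd1 had 254 and 253 CPM in Ezh2 K735R, against 264 and 263 CPM in wild-type Ezh2, and Ash1l had 166 and 168 CPM, against 181 and 179 CPM. Kdm2a had 203 and 200 CPM in Ezh2 K735R, against 190 and 193 CPM in wild-type Ezh2, Kdm4a 145 and 162 CPM, against 139 and 152 CPM, and Kdm6b 124 and 130 CPM, against 120 and 122 CPM. Among these 5 genes the groups of Kdm4a overlapped and those of the other 4 were separate. In all, libraries did not overlap for 6 of the 10 genes, against 42.3% of all genes tested. Ezh2 itself had 46.9 and 47.9 CPM in Ezh2 K735R, against 58.2 and 39.7 CPM in wild-type Ezh2.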

How the data were processed

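RNA was sequenced as paired reads of 150 nucleotides, per the labels' protocols. Bowtie, RSEM and the build mm10 are named in the submitters' processing notes, without versions, strandedness or the rule for dividing reads shared between relatives. The authors deposited RPKM values for 8 libraries of 4 genotypes and whole-number counts for 4 libraries of 2 genotypes, and no column was left unused. RPKM values were log2-transformed with a pseudocount of 1 and tested with limma 3.58.1 (R 4.3.3, trended and robust) over the 11338 genes averaging 1 RPKM or more, with the 4 genotypes in 1 fit and 7 contrasts. Fold changes are on that scale, which understates changes of low genes. Counts were tested with edgeR 4.0.16 (quasi-likelihood, TMM scaling) over 13203 genes, with DESeq2 1.42.0 as an alternative. All tests were two-sided, with Benjamini-Hochberg adjustment over all genes of a contrast and a threshold of 0.05. All 10 enzyme genes passed both filters.

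The deposited RPKM values gave whole reads within 0.01 of a read for 13744 of the 13748 genes above 0 in all 8 libraries (99.97%), and edgeR on those reads served as an alternative. Further alternatives were other scalings, filters, a pseudocount of 0.1, a replicate block and leaving out each library. The tests were tried on simulated data. The 10 genes and the lists of related genes were chosen with earlier results of these data known. Genes named beside them are the neighbours of Setd2, the called members of the lists and the genes most like each enzyme gene by Pearson correlation. The 3 ChIP samples were not analysed here, and 1 further part of the genotypes is not reported here.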

Additional observations from a re-analysis of the deposited data

Results flagged for a closer look

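In 4 of the 10 genes (Nsd1, Ash1l, Kdm2a and Kdm6b) the fitted Ezh2 effect had opposite signs in the 2 Setd2 genotypes, none of them called. Only for Kdm2a did both libraries of each group without Ezh2 lie on opposite sides of their partner's mean. Both double null libraries (26.2 and 24.9 RPKM) lay above the Setd2 null mean, and both Ezh2 null libraries (23.4 and 21.9 RPKM) lay below the control mean. The log2 fold change of Kdm2a was 0.13 in double null against Setd2 null and −0.21 in Ezh2 null against control, a difference of 0.34 (95% interval −0.11 to 0.80) that did not pass limma's interaction test (adjusted p = 0.714). The opposite direction was lost in 3 of 16 alternatives, where double null against Setd2 null ran from −0.061 to −0.049. The Setd2 null libraries of Kdm2a were 20.1 and 26.7 RPKM.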

How the results depend on the processing

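Of 80 pairs of an enzyme gene and a comparison, 11 were called, 0 of these changed sign under any alternative, and 9 kept their call under every alternative. Of the pairs not called, 38 changed sign and 10 were called under some alternative. The enzyme genes called in Ezh2 null against control numbered 3, and 5 after quantile normalization, 6 after median-ratio scaling and 6 by edgeR on recovered reads. For the averaged Ezh2 effect they numbered 3, and 5 under each of these 3 settings. Over all genes, Ezh2 null against control had 6416 calls of 11338 as deposited. It had 6335 after quantile normalization, 6191 after median-ratio scaling and 7487 by edgeR. In the same order, the averaged Ezh2 effect had 7763, 7622, 7533 and 9387 calls over all genes. In double null against Ezh2 null the 1 call became 0 with median-ratio scaling, with no filter and with only the groups compared. Leaving out 1 library gave 0 to 1 in Setd2 null against control, 3 to 5 in Ezh2 null against control, 0 to 1 in double null against Ezh2 null, 2 to 4 in double null against Setd2 null and 3 to 5 for the averaged Ezh2 effect. Kdm6b changed sign for the averaged Ezh2 effect, to −0.051 with quantile normalization, −0.063 with median-ratio scaling, −0.078 by edgeR and −0.050 without Setd2 null 1 (0.275 without Setd2 null 2). In double null against Setd2 null it was −0.066 without Setd2 null 1 and 0.584 without Setd2 null 2. Kdm2a in double null against Setd2 null changed sign to −0.049 with median-ratio scaling, −0.057 by edgeR and −0.061 without Setd2 null 1 (0.331 without Setd2 null 2). The cause was not tested.

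With the replicate number as a block, 1 enzyme gene was called in Setd2 null against control, 5 in Ezh2 null against control (with Kdm4a, limma adjusted p = 0.0489, and Kdm6a, limma adjusted p = 0.0300, added) and 6 for the averaged Ezh2 effect. The numbers are only 1 and 2, so they were not taken to pair the libraries, although differences between libraries 1 and 2 correlated at 0.105 to 0.933 between the genotypes of the RPKM table, most between Ezh2 null and double null, and at 0.101 between Ezh2 K735R and wild-type Ezh2. Over all genes, Setd2 null against control had 121 calls, and 56 with quantile normalization, 67 with no filter, 62 at a mean of 5 RPKM, 231 with the block, 15 with only the groups compared and 24 to 132 with 1 library left out. Double null against Ezh2 null had 736, and 465 at a mean of 5 RPKM, 399 with only the groups compared and 361 to 799 with 1 library left out. The averaged Setd2 effect had 680, and 409 at a mean of 5 RPKM, 1154 with the block and 314 to 821 with 1 library left out. The interaction had 294, and 146 at a mean of 5 RPKM, 469 with the block and 142 to 278 with 1 library left out. Ezh2 K735R against wild-type Ezh2 had 1 call by edgeR, 285 by DESeq2, 2 by limma, 4 with the block, 1595 without wild-type Ezh2 2 644 without wild-type Ezh2 1 and 0 without either K735R library.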
